A study of Mus musculus with 9 samples.

Results

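The metallothioneins are small cysteine-rich proteins that bind zinc and copper, and 3 of their genes, Mt1, Mt2 and Mt3, were taken by symbol from a table of 18061 genes measured in cultured mouse astrocytes. No other symbol of the Mt series with a number was in the table analysed. RNA came from primary cortical astrocytes of wild-type C57BL/6 pups at P1, sequenced as 9 libraries that their titles call biological replicates, 3 in each group. Astrocytes of the Aβ plus acetate group had 1 μM Aβ (amyloid-beta) oligomers for 5 days from day 8 in vitro, and 10 mM sodium acetate in glucose-free medium for the last of those days. Astrocytes of the acetate group had 10 mM sodium acetate in glucose-free medium for 1 day and no Aβ, and control astrocytes had glucose-free medium for 1 day and neither agent. All groups therefore shared the medium change at day 11 and the harvest at day 12, and neither Aβ without acetate nor glucose-fed astrocytes were analysed here. The labels do not say whether pups were pooled for a culture.

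Metallothioneins hold metal ions in clusters of cysteines, buffer free zinc and copper in the cell, and can also take up oxidants. Zinc activates the transcription factor MTF1, which binds metal response elements in the promoters of Mt1 and Mt2, and both genes are also induced by glucocorticoids and by IL-6 family cytokines. Mt1 and Mt2 are made in most tissues and in the brain mainly by astrocytes, while Mt3, first described as growth inhibitory factor, is enriched in the brain and responds little to metals.

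The 3 genes lie in 1 cluster on the plus strand of chromosome 8, and each has 3 exons in its first transcript by name in GENCODE M21. On mm10, as deposited, Mt3 spans chr8:94152607-94154149, Mt2 spans chr8:94172618-94173568 and Mt1 spans chr8:94179089-94180328. The transcripts have 536 bases for Mt3, 511 bases for Mt2 and 549 bases for Mt1. The longest run of bases shared by 2 of the transcripts was 27, between Mt1 and Mt3, and no window of 50 bases in any of them occurred in a transcript of another gene.

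The 250 bases before each annotated RefSeq start are shown (GRCm38.p6, the assembly of mm10, plus strand). These stretches differ in the metal response element core, searched on both strands as TGCACNC or TGCGCNC and printed in capitals. The intervals are chr8:94178839-94179088 for Mt1, chr8:94172368-94172617 for Mt2 and chr8:94152357-94152606 for Mt3.
Mt1: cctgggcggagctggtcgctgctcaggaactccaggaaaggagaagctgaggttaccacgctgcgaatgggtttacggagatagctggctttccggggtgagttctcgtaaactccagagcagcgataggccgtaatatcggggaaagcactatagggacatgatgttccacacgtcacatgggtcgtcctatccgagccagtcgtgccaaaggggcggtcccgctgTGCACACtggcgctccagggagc
Mt2: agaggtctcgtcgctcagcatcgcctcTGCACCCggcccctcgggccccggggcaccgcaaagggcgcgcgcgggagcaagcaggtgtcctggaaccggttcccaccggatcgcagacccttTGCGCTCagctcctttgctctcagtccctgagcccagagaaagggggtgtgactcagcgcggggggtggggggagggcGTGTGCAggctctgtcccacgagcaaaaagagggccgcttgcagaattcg
Mt3: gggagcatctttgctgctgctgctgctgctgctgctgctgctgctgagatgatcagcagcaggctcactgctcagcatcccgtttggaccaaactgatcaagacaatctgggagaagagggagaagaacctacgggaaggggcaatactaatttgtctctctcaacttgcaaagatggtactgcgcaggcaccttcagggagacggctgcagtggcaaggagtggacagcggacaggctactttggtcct
In a window of 300 bases, which adds the first 50 bases after the start, Mt2 held 4 cores, Mt1 held 3 and Mt3 held 1. Counting the start as base 1 and the base before it as -1, the Mt1 cores lay at -23 to -17, 3 to 9 and 21 to 27. Those of Mt2 lay at -223 to -217, -128 to -122, -50 to -44 and 5 to 11, with the last 2 of these on the minus strand, so that the one before the start reads GTGTGCA in the printed strand. The only Mt3 core lay after the start, at 28 to 34, so its printed sequence has no capitals. Among 32851 promoters of the same length, 25.7% held at least 1 core, 1.97% at least 3 and 0.517% at least 4. Within these 3 windows, the antioxidant response element TGACNNNGC occurred once, in that of Mt2, and it occurred in 12.4% of all promoters. The STAT motif TTCNNNGAA occurred in none of the 3 windows and in 8.30% of all promoters. These matches describe letters in the window and do not show that a factor binds there. They depend on the annotated start, which for Mt2 is 94172618 here but 94172664 in GENCODE M21. For Mt1 it is 94179089 here but 94179082 in GENCODE M21, and positions before or after the start refer to these annotations only. Bases outside the windows were not searched, so the counts do not cover each gene's whole promoter.

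All 3 genes were among the most abundant transcripts of these astrocytes. Per kilobase of merged exons and averaged over the 9 libraries, Mt2 ranked 3, Mt1 ranked 15 and Mt3 ranked 23 among 13871 genes. Merged exons had 588 bases for Mt2, 1246 for Mt1 and 1066 for Mt3, so these ranks depend on that choice of length. Together the 3 genes made up 0.210% to 0.309% of the CPM (counts scaled to 1000000 per library) in a library. Levels of the 3 genes were then compared per length, since their transcripts differ in size. Per kilobase of transcript, Mt2 averaged 2039 ± 59.5 CPM per kb in Aβ plus acetate, 2142 ± 183 in acetate and 1814 ± 320 in control astrocytes (SD, n = 3 each). Mt1 averaged 1864 ± 193 CPM per kb in Aβ plus acetate, 1868 ± 212 in acetate and 1525 ± 258 in control astrocytes (SD, n = 3 each). Mt3 averaged 1270 ± 320 CPM per kb in Aβ plus acetate, 1181 ± 303 in acetate and 1301 ± 467 in control astrocytes (SD, n = 3 each). The order of the means was thus Mt2, Mt1, Mt3 in every group. Across libraries, Mt2 and Mt1 overlapped in every group, and Mt3 lay below both without overlap in the treated groups but overlapped both in controls. Within every single library, controls included, Mt3 was the lowest of the 3 genes.

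The libraries fell into 2 sets by the naming style of their library names. Set 2 holds Aβ plus acetate 2 and 3, acetate 2 and 3 and control 3, and set 1 holds Aβ plus acetate 1, acetate 1 and control 1 and 2. What the sets stand for is not in the labels. They separated on the first principal component, which carried 89.7% of the variance, and 70.6% of the 14058 genes tested passed the threshold between them, so the limma comparisons of groups below include the set as a covariate unless said otherwise. Of 10 astrocyte markers, 9 (among them Gfap, Aqp4, Slc1a3 and Aldh1l1) were at 1 CPM or more in every library, and Gjb6, a gap junction gene of mature astrocytes, was under 1 CPM in all. The table implies 22160000 to 57030000 reads per library, at which counting error was 0.398% to 0.815% of a metallothionein value, under the spread between replicates.

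Mt1 had a higher mean in both treated groups than in control astrocytes, but the difference did not pass the test over all genes. Mt1 stood at 1105, 903 and 1062 CPM in Aβ plus acetate 1, 2 and 3, at 1152, 1001 and 923 CPM in acetate 1, 2 and 3, and at 1001, 750 and 761 CPM in control 1, 2 and 3. The 3 lowest libraries were control 2, control 3 and Aβ plus acetate 2, and control 1 lay within the range of the treated libraries, so the groups overlapped. The means were 1023 ± 106 CPM in Aβ plus acetate, 1025 ± 117 CPM in acetate and 837 ± 142 CPM in control astrocytes (SD, n = 3 each). The ratio of means was 1.22 in Aβ plus acetate over control and 1.22 in acetate over control.

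Fitted with the set as a covariate, Mt1 was higher by a log2 difference of 0.37 in acetate than in control (SE 0.12, 95% interval 0.11 to 0.62, unadjusted p = 0.00846). This did not pass the threshold over all genes (adjusted p = 1.00, limma with Benjamini-Hochberg adjustment). The difference between Aβ plus acetate and control was of the same size, 0.37 (SE 0.12, 95% interval 0.11 to 0.62, unadjusted p = 0.00875 and adjusted p = 0.999 by limma). The 2 comparisons share the control libraries. Across all 14058 genes tested, 0 genes (0%) were called by limma in acetate against control and 453 (3.22%) had an unadjusted p under 0.05. For Aβ plus acetate against control, these were 0 genes (0%) and 505 (3.59%). Both treated groups together against control, a contrast chosen after seeing the data, gave a log2 difference of 0.37 for Mt1 (SE 0.10, unadjusted p = 0.00388, adjusted p = 1.00 by limma, 0% of genes called).

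Within each set, every treated library had more Mt1 than every control of the same set. In set 2, Aβ plus acetate had 903 and 1062 CPM and acetate 1001 and 923 CPM, against 761 CPM in the only control. In set 1, Aβ plus acetate had 1105 CPM and acetate 1152 CPM, against 1001 and 750 CPM in the 2 controls. This pattern held for 240 of 14058 genes in the same direction (1.71%), with the opposite direction in 3.56%, and it was noticed after seeing the data. The percent change of the mean in acetate over control was 26.3% in set 2 and 31.7% in set 1, and in Aβ plus acetate over control it was 29.0% in set 2 and 26.2% in set 1. The change in Mt1 with acetate differed by a log2 of -0.08 between set 2 and set 1 (limma interaction, SE 0.26, adjusted p = 0.962). In bulk RNA, fewer cells of a type and less RNA per cell cannot be told apart. The summed astrocyte markers ran from 8994 to 12492 CPM in Aβ plus acetate, 8325 to 11966 CPM in acetate and 7504 to 10534 CPM in control libraries. Among the 9 tested astrocyte markers, 7 had a higher estimate in acetate than in control, with a median of 0.10 against -0.02 over all genes and 0 called. Other marker lists moved more. All 8 fibroblast and meningeal markers had a higher estimate in acetate than in control, with a median of 0.23. In Aβ plus acetate against control, 3 of them were higher and 5 lower, with a median of -0.06. Of 7 tested microglial markers, 2 were higher and 5 lower in acetate than in control, with a median of -0.23. In Aβ plus acetate, 7 were lower than in control, with a median of -0.44. The part of these marker lists in the Mt1 difference was not tested.

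**Figure D1:**
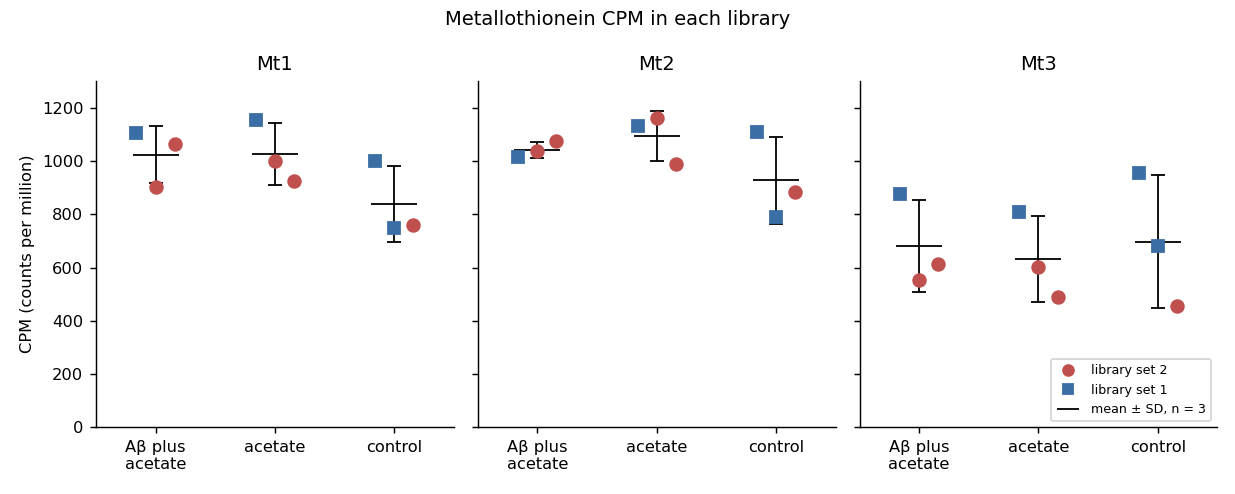
CPM of Mt1, Mt2 and Mt3 in each of 9 libraries, by group, with the mean and SD of 3 libraries as bars and the library set as marker shape and colour. Mt1 lies between 903 and 1152 CPM in the treated libraries and between 750 and 1001 CPM in controls, and Mt3 lies at 612 CPM or less in every set 2 library and at 679 CPM or more in every set 1 library.

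Mt2, the isoform next to Mt1 and usually induced with it, had a smaller and less certain difference. Mt2 stood at 1014, 1038 and 1074 CPM in Aβ plus acetate 1, 2 and 3, at 1133, 1163 and 988 CPM in acetate 1, 2 and 3, and at 1108, 790 and 883 CPM in control 1, 2 and 3. Control 2 and control 3 were the lowest of all libraries, while control 1 exceeded all of the Aβ plus acetate libraries, so the groups overlapped. The means were 1042 ± 30.4 CPM in Aβ plus acetate, 1094 ± 93.5 CPM in acetate and 927 ± 164 CPM in control astrocytes (SD, n = 3 each). The log2 difference was 0.26 in acetate against control (SE 0.12, unadjusted p = 0.0584) and 0.19 in Aβ plus acetate against control (SE 0.12, unadjusted p = 0.145), and the adjusted p by limma was 1.00 and 0.999 in that order. In set 2, both treated groups exceeded the control, and in set 1 the Aβ plus acetate library, at 1014 CPM, lay between the 2 controls.

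Mt3, the brain-enriched isoform, showed no difference between groups beyond the spread of its libraries. Mt3 stood at 876, 555 and 612 CPM in Aβ plus acetate 1, 2 and 3, at 809, 601 and 489 CPM in acetate 1, 2 and 3, and at 956, 679 and 456 CPM in control 1, 2 and 3. The highest and the lowest of the 9 values were both controls, control 1 and control 3, so the other groups lay within the control range. The means were 681 ± 171 CPM in Aβ plus acetate, 633 ± 162 CPM in acetate and 697 ± 250 CPM in control astrocytes (SD, n = 3 each). With the set as a covariate, Mt3 gave a log2 difference of 0.11 in acetate against control (SE 0.13, unadjusted p = 0.411) and 0.22 in Aβ plus acetate against control (SE 0.13, unadjusted p = 0.126), with adjusted p of 1.00 and 0.999 by limma. Without the set, the estimates were -0.11 and 0.0018 for the same comparisons, so the direction in acetate turned with the choice of fit. The corresponding estimates without the set were 0.30 and 0.30 for Mt1, and 0.25 and 0.18 for Mt2.

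Aβ added to acetate gave no difference larger than the replicate spread for any of the 3 genes. For Aβ plus acetate against acetate, the log2 difference was -0.0022 for Mt1 (SE 0.11, 95% interval -0.25 to 0.24). For Mt2 it was -0.07 (SE 0.12, 95% interval -0.33 to 0.19), and for Mt3 it was 0.11 (SE 0.13, 95% interval -0.18 to 0.39). By limma, 0 of 14058 genes (0%) were called in this comparison and 436 (3.1%) had an unadjusted p under 0.05. With 3 libraries in each group, changes within these intervals could not be told from no change. The interactions with the set did not pass the threshold either, with adjusted p of 0.9999 for all 3 genes by limma.

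**Figure D2:**
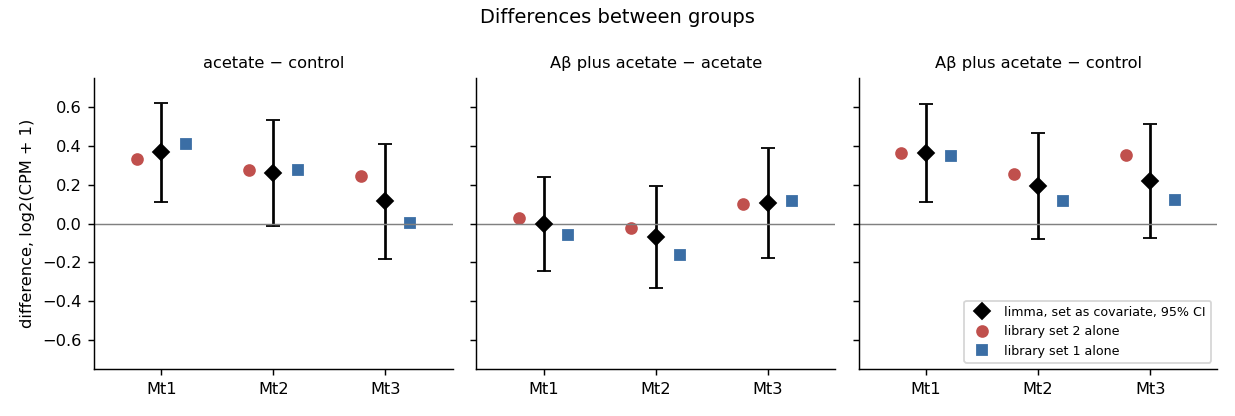
Log2 differences of Mt1, Mt2 and Mt3 on the log2(CPM + 1) scale for the 3 comparisons, as the limma estimate with the set as a covariate and its 95% interval (diamonds) and as the difference of means within each set (circles and squares). The interval of Mt1 runs from 0.11 to 0.62 in both comparisons with control, and those of Mt2 and Mt3 include 0 in all 3 comparisons.

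Mt3 was lower in library set 2 than in library set 1, in all 3 groups. Mt3 ran from 456 to 612 CPM in set 2 with a median of 555, and from 679 to 956 CPM in set 1 with a median of 842. All 5 libraries of set 2 lay below all 4 libraries of set 1. The means were 543 ± 68.3 CPM in set 2 (SD, n = 5) and 830 ± 117 CPM in set 1 (SD, n = 4), and the log2 difference was -0.66 (SE 0.11, adjusted p = 0.000254 by limma). Such a call was common, since 32.3% of all genes were called lower in set 2, and 29.5% lay lower without overlap.

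Mt1 and Mt2 had smaller differences between the sets. Mt1 had 930 ± 114 CPM in set 2 (SD, n = 5) and 1002 ± 180 CPM in set 1 (SD, n = 4), a log2 difference of -0.21 (SE 0.10, adjusted p = 0.0732 by limma). This Mt1 difference passed the threshold under median-of-ratios scaling (-0.25, adjusted p = 0.0289 by limma) and without control 2 (-0.27, adjusted p = 0.0164 by limma). Mt2 had 1029 ± 104 CPM in set 2 (SD, n = 5) and 1011 ± 156 CPM in set 1 (SD, n = 4), and the log2 difference fitted with the group as a term was -0.03 (SE 0.10, 95% interval -0.26 to 0.19, adjusted p = 0.777 by limma). The means put Mt2 slightly higher in set 2 and the fitted difference slightly lower, so its direction is not settled. In size, the Mt2 difference exceeded that of 4.91% of genes, the Mt1 difference that of 28.0% and the Mt3 difference that of 70.2%, where the median gene had 0.40. The coefficient of variation over the 9 libraries was 11.8% for Mt2, 14.7% for Mt1 and 26.0% for Mt3, against 19.2% for the median gene.

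Ratios within a library do not depend on how libraries were scaled, and they placed Mt3 apart from the other 2 genes between sets. The ratio of Mt3 to Mt1 was 0.530 to 0.614 in set 2 and 0.702 to 0.955 in set 1, a log2 difference of -0.51. The ratio of Mt3 to Mt2 was 0.495 to 0.569 in set 2 and 0.714 to 0.864 in set 1, a log2 difference of -0.65. Both sets were separate in both ratios, with p = 0.00794 in an exact two-sided permutation test, the smallest p that 126 arrangements allow. The ratio of Mt2 to Mt1 overlapped between the sets, with a log2 difference of 0.13 (exact p = 0.103). These tests of the ratios across sets were chosen after seeing the data, and each library's group was ignored in them. Mt3 itself was separate between the sets, as 63.5% of all genes were, so these p-values say little beyond the Mt3 difference. Mt3 made up 20.4% to 22.3% of the summed metallothionein CPM in set 2 and 26.1% to 31.2% in set 1.

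Between groups, no difference in the ratios was detected, in a test without the library set as a term. The set therefore adds to the spread, and controls hold 2 libraries of set 1 where each treated group holds 1. The exact two-sided permutation p ran from 0.3 to 1 over the 3 ratios and 3 comparisons, where 20 arrangements allow no p under 0.1. In set 1, the ratio of Mt3 to Mt1 was 0.793 in Aβ plus acetate and 0.702 in acetate, against 0.955 and 0.906 in controls. In set 2, it was 0.614 and 0.576 in Aβ plus acetate and 0.601 and 0.530 in acetate, against 0.599 in the control. Controls were thus higher in set 1, and the control lay among the treated libraries in set 2. For acetate against control, the mean log2 ratio of Mt3 to Mt1 differed by -0.40 over all 6 libraries (exact permutation p = 0.3), by -0.087 in set 2 and by -0.41 in set 1.

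**Figure D3:**
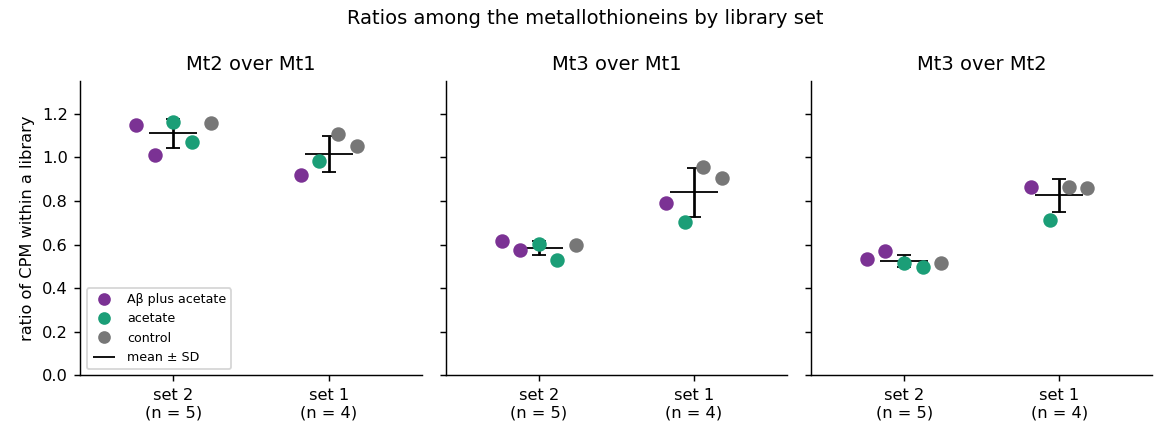
Ratio of CPM within each library for Mt2 over Mt1, Mt3 over Mt1 and Mt3 over Mt2, by library set, with the group as colour and the mean and SD of 5 (set 2) or 4 (set 1) libraries as bars. The ratio of Mt3 to Mt2 is 0.495 to 0.569 in set 2 and 0.714 to 0.864 in set 1, while the ratio of Mt2 to Mt1 overlaps between the sets.

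Marker lists of several cell types moved with the sets as well. The summed astrocyte list had 10472 to 12492 CPM in set 2 and 7504 to 8994 CPM in set 1, with Gjb6 at 0 in some libraries. The 8 fibroblast and meningeal markers summed to 977 to 1234 CPM in set 2 and 2657 to 2901 CPM in set 1, with Lum at 0 in some libraries. Neither list overlapped between the sets. Among the 9 tested astrocyte markers, 6 were called higher in set 2 by limma, among them Gfap and Slc1a3, and 3 lower, Aqp4, Aldh1l1 and Aldoc, so the sum does not stand for all members. All 8 fibroblast markers were called lower in set 2. Over all genes, 38.4% were called higher and 32.3% lower in set 2, so calls in either direction were common. The 8 microglial markers summed to 85.7 to 178 CPM in set 2 and 22.6 to 61.4 CPM in set 1, and none was at 0. The 8 neuronal markers, of a cell type in which Mt3 is also made, summed to 475 to 524 CPM in set 2 and 522 to 635 CPM in set 1, and none was at 0. The microglial sums were higher in set 2 without overlap, with 7 of 7 tested markers called higher. The neuronal sums were lower in set 2 with a narrow overlap, but of 6 tested markers 2 were called higher and 2 lower, and 5 of the 8 had a higher mean in set 2. The sum followed Map2 and Stmn2, whose means were 394 and 57.1 CPM in set 2 and 435 and 122 CPM in set 1. The 8 markers of the oligodendrocyte lineage summed to 94.2 to 141 CPM in set 2 and 166 to 239 CPM in set 1, with Mog and Mag at 0 in some libraries. Its lower sum in set 2 followed Olig2 and Cspg4, while Pdgfra, with a mean of 12.5 CPM in set 2 and 5.26 CPM in set 1, and Mbp, with 17.9 CPM in set 2 and 2.49 CPM in set 1, went the other way. The 7 endothelial markers in the table summed to 40.1 to 55.9 CPM in set 2 and 39.5 to 48.0 CPM in set 1, with Cdh5 at 0 in some libraries. Their part in the Mt3 difference was not tested.

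With the set mean removed from each gene, the 3 metallothioneins varied together over the 9 libraries, where all genes of a library share its scaling. The Pearson correlation of log2(CPM + 1) was 0.90 between Mt1 and Mt2, 0.85 between Mt2 and Mt3 and 0.78 between Mt1 and Mt3, with Spearman values of 0.8, 0.75 and 0.6 in that order (n = 9, as a description). Without that step the correlation was 0.84 for Mt1 and Mt2, 0.58 for Mt1 and Mt3 and 0.33 for Mt2 and Mt3. Other genes were more alike to each of them. On the set-centred scale, the 5 genes nearest to Mt1 were Dctn6 (r = 0.977), Sgsm3 (0.941), Cdkl1 (0.928), Fam189a2 (0.924) and Bbs4 (0.917). Those nearest to Mt2 were Slc22a18 (0.986), Pced1b (0.965), E530011L22Rik (0.963), Susd2 (0.962) and Klhdc9 (0.959). Those nearest to Mt3 were Mllt6 (0.985), Mocs1 (0.981), Vamp2 (0.978), Naa80 (0.970) and Kptn (0.968). Mt2 ranked 12 among 14057 genes in likeness to Mt1, and Mt1 ranked 38 in likeness to Mt2.

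Genes of zinc handling were set beside the metallothioneins, since MTF1 controls several of them as well. Of 25 listed genes, Mtf1 itself and the zinc transporters of the SLC30 and SLC39 families, 20 were tested and 0 were called by limma in any of the 3 comparisons between groups, as for all genes. At an unadjusted p under 0.05, 0 of the 20 passed in either comparison with control. The single one in Aβ plus acetate against acetate was Slc39a12, a zinc importer enriched in brain, with a log2 difference of -0.21 (SE 0.09, adjusted p = 1.00 by limma). The median log2 difference over the 20 genes was -0.03 in acetate against control, beside -0.02 over all genes, and -0.06 in Aβ plus acetate against control, beside -0.0049 over all genes.

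Slc30a1, which encodes the zinc exporter of the plasma membrane and is, like Mt1 and Mt2, a known MTF1 target, gave no difference between groups beyond its spread. It stood at 54.9, 137 and 150 CPM in Aβ plus acetate 1, 2 and 3, at 64.5, 139 and 148 CPM in acetate 1, 2 and 3, and at 54.5, 68.6 and 140 CPM in control 1, 2 and 3. The set 1 libraries were low and the set 2 libraries high in every group. The log2 difference was -0.05 in Aβ plus acetate against control (SE 0.10) and 0.03 in acetate against control (SE 0.10). Mtf1 gave -0.11 (SE 0.08) and 0.01 (SE 0.08) in the same comparisons, with adjusted p of 0.999 and 1.00 by limma for both genes.

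Between sets, most zinc transporters differed. Of the 20 genes, 11 were higher and 4 lower in set 2, with a median of 0.37 beside 0.05 over all genes, where 38.4% of all genes were called higher. These 15 of 20 stand beside 70.6% of all genes called in either direction, a similar share. Slc30a1 had 137 to 150 CPM in set 2 and 54.5 to 68.6 CPM in set 1 (log2 difference 1.23, SE 0.08, adjusted p = 1.69e-07 by limma). Slc30a5, an exporter of the secretory pathway, gave 1.03 (SE 0.11) and Mtf1 gave 0.53 (SE 0.07), while the importer Slc39a10 gave -1.07 (SE 0.11). The ratio of Mt2 to Slc30a1 was 6.31 to 8.35 in set 2 and 11.5 to 20.3 in set 1, and that of Mt1 to Slc30a1 was 5.44 to 7.18 in set 2 and 10.9 to 20.1 in set 1. Both ratios were separate between sets, but Slc30a1 itself was separate too, as 63.5% of all genes were. The ratios were chosen after seeing the data and say little beyond the Slc30a1 difference.

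**Figure D4:**
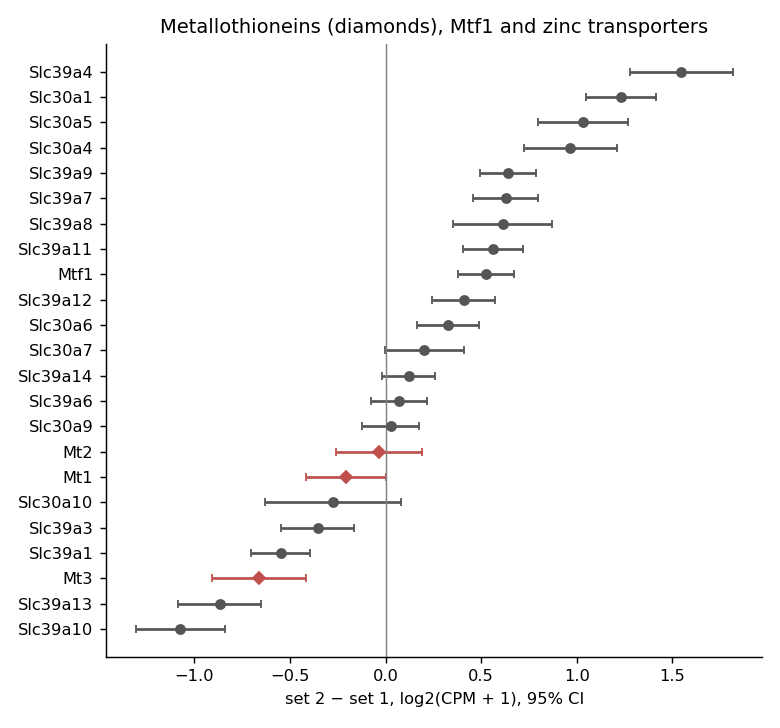
Difference of set 2 and set 1 on the log2(CPM + 1) scale with 95% intervals from limma for the 3 metallothioneins (diamonds), Mtf1 and 19 zinc transporters (circles). Mt2 lies at -0.03 and Mt1 at -0.21 between transporters that range from -1.07 for Slc39a10 to 1.55 for Slc39a4.

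Other pathways that can induce Mt1 and Mt2, or share their metals, also gave 0 calls between groups by limma, as did all 14058 genes together. Over all genes, the share with an unadjusted p under 0.05 was 3.1% to 3.59% in the 3 comparisons. The glucocorticoid response list had 13 tested genes, 11 with a lower estimate in acetate than in control and a median of -0.09 beside -0.02 over all genes. Its genes with an unadjusted p under 0.05 there were Dusp1, a MAP kinase phosphatase (log2 difference -0.24, SE 0.10), and Sgk1, a kinase (-0.22, SE 0.10). The IL-6 family and STAT3 list had 19 tested genes and a median of -0.0024 in acetate against control. In Aβ plus acetate against control, its acute phase gene Serpina3n gave 0.44 (SE 0.09, unadjusted p = 0.000397, adjusted p = 0.999 by limma). The iron handling and haem list had 14 tested genes. Hmox1 and Lcn2, an iron carrier, had an unadjusted p under 0.05 in both comparisons of Aβ plus acetate, and both were higher there. Against acetate, Hmox1 gave 0.57 and Lcn2 gave 0.73. Against control, they gave 0.47 and 0.79 in that order, and the adjusted p by limma was 0.913 or more throughout. The copper handling list had 14 tested genes, of which 0 had an unadjusted p under 0.05 in any comparison between groups.

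NRF2 controls the response to oxidative stress, in which metallothioneins can take part. Of 25 NRF2 target genes, 20 had a higher estimate in Aβ plus acetate than in acetate, with a median of 0.11 beside 0.02 over all genes, and 0 were called by limma. Hmox1, which degrades haem, had 161, 487 and 395 CPM in Aβ plus acetate 1, 2 and 3, against 102, 293 and 315 CPM in acetate 1, 2 and 3. Within each set its values were higher in Aβ plus acetate (log2 difference 0.57, SE 0.09, unadjusted p = 6.49e-05, adjusted p = 0.913 by limma). Srxn1, a sulfiredoxin that repairs oxidised peroxiredoxins, gave 0.50 (SE 0.10, unadjusted p = 0.000349). Mt1 gave -0.0022 and Mt2 gave -0.07 in the same comparison. Between sets, 7 of the 25 genes were called higher and 10 lower in set 2 by limma, beside 38.4% and 32.3% of all genes.

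Most neighbours of the cluster had a higher estimate in set 2, but 1 went the other way. Of 7 other genes within 250 kb, 6 were tested and 0 were called by limma between groups. Between sets, Herpud1, an endoplasmic reticulum stress gene, had 726 to 774 CPM in set 2 and 40.4 to 44.9 CPM in set 1 (log2 difference 4.12, SE 0.06, adjusted p = 3.48e-12 by limma). Nup93, a nuclear pore gene next to Mt1, was lower in set 2 with -1.04 (SE 0.08), and Ogfod1 and Bbs2 were higher with 0.48 and 0.27. Nudt21 gave 0.08 (SE 0.08, adjusted p = 0.363 by limma). By estimate, 5 of the 6 tested neighbours were higher and 1 lower in set 2. Of these, 4 were called higher and 1 lower by limma, beside 38.4% and 32.3% of all genes. Within the cluster, Mt2, with -0.03, starts at -6.47 kb from the Mt1 start, and Mt3, with -0.66, at -26.5 kb.

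**Figure D5:**
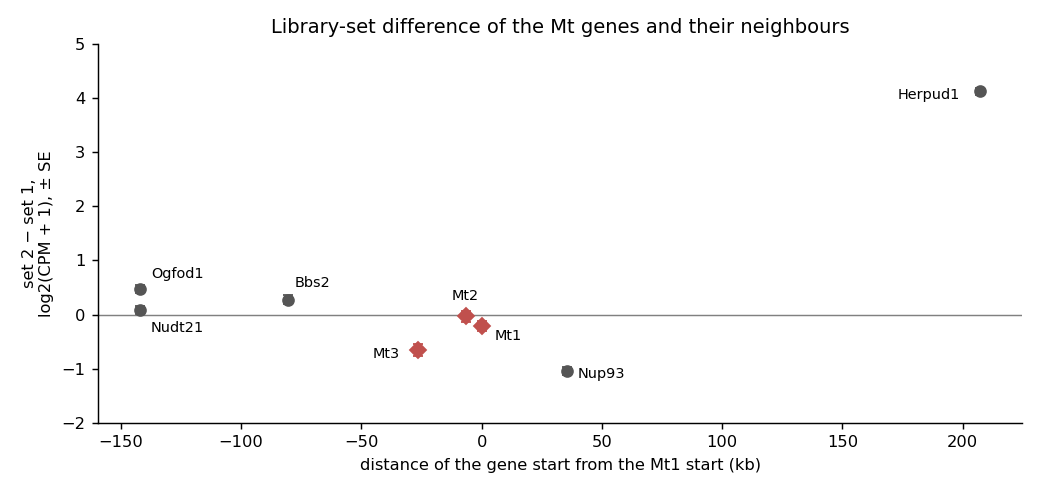
Difference of set 2 and set 1 on the log2(CPM + 1) scale, with SE as bars, against the distance of each gene's start from the Mt1 start in kb, for the 3 metallothioneins (diamonds) and 5 neighbours (circles). Herpud1 stands at 4.12 and Nup93 at -1.04, and the metallothioneins lie between -0.66 and -0.03.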

How the data were processed

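The authors deposited CPM, counts scaled to 1000000 per library, for 18061 genes in 9 libraries, and the tools and builds named, per the submitters' processing notes, are Partek, FastQC, STAR 2.7.3a, mm10 and GRCm39, without their roles. Per the labels, poly(A)-selected RNA was sequenced in pairs of 100 bases. The strand setting of counting is not given in the sources used here. Low values implied 22160000 to 57030000 reads per library, but only 93.4% to 94.4% of them were whole to within 0.1, so no count model was used.

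The authors' CPM was taken as log2(CPM + 1). Genes at 1 CPM or more in at least 3 of 9 libraries (14058) were fitted in limma 3.58.1 (R 4.3.3) with eBayes set to trend and robust, two-sided, with all 9 libraries together and the library set as a covariate. P-values were adjusted by Benjamini-Hochberg over all genes tested, with a threshold of 0.05. The fit was tested on simulated data. Log2 differences are on the log2(CPM + 1) scale, which understates changes of low genes. P-values cover the spread between these libraries. Ratios within a library were compared by an exact two-sided permutation test. Levels per kilobase used GENCODE M21, and promoters came from RefSeq.

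The members and lists were chosen with earlier results of these data known, including the choice of the set as covariate. The text names the 3 metallothioneins, up to 4 members of each list (zinc, copper, iron, glucocorticoid, IL-6, NRF2 and genes within 250 kb) by smallest unadjusted p in a comparison, the 5 genes most like each metallothionein, and other zinc transporters as counts. Cell type markers were fixed lists. A neighbour of the cluster is not reported here by name. Libraries that share a number in their library names deviated together, with r over 0.1 in 7 of 7 pairs (r from 0.761 to 0.947). Those that share a title number did so in 7 of 9 pairs. Each library-name pair lies in 1 set, and with the set removed 0 of 7 pairs passed (r from -0.499 to -0.105). The r values thus cannot tell pairing from the set, and the main fit has no pairing term. Alternatives were other pseudocounts, filters, scalings and priors, array weights, fits without the set or with a replicate block, each set alone, and each library left out.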

Additional observations from a re-analysis of the deposited data

How the results depend on the processing

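The 27 results were recomputed under 411 alternatives in all. The number of genes called between groups was 0 under all 63 alternatives by limma, and no group difference of Mt1, Mt2 or Mt3 passed the threshold under any. Mt1 kept its direction in both comparisons with control, with 0.27 to 0.46 when 1 library was left out. Leaving out 1 library moved Mt2 to between 0.16 and 0.38 in acetate and between 0.091 and 0.31 in Aβ plus acetate against control. For Mt3, it gave 0.0091 to 0.25 in acetate and 0.12 to 0.36 in Aβ plus acetate against control, so the size of these differences rests on single libraries. Without the set, and with a replicate block by title number, Mt3 in acetate against control reversed to -0.11. With a replicate block by library-name number, it gave 0.27 and Mt1 gave 0.46 there, and this block changed no call. It rests on control 2 and control 3 only.

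Mt1 in Aβ plus acetate against acetate was 0.0056 with array weights and -0.072 to 0.055 when 1 library was left out. The set difference of Mt1 passed the threshold with median-of-ratios scaling (-0.25), and was -0.27 to -0.15 when 1 library was left out. That of Mt2 was 0.037 with quantile normalization, 0.019 with array weights, and -0.097 to 0.036 when 1 library was left out. With median-of-ratios scaling, the difference between sets in the effect was -0.062 for Mt2 in acetate against control and 0.0075 for Mt3 in Aβ plus acetate against acetate.

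The log2 ratio of Mt2 to Mt1 was -0.11 to 0.013 in acetate against control and -0.15 to 0.012 in Aβ plus acetate against acetate when 1 library was left out. That of Mt3 to Mt1 was -0.028 to 0.21 in Aβ plus acetate against acetate when 1 library was left out. In acetate against control it was -0.62 to -0.28 when 1 library was left out, -0.087 in set 2 alone and -0.41 in set 1 alone, beside -0.40 over all libraries. The cause of these changes was not tested. With 3 libraries in each group, exact tests cannot go below 0.1, and a single control in set 2 and single treated libraries in set 1 limit the values within sets.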
